A study of Mus musculus with 2 samples.

Results

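Monoamine breakdown and transport genes were described as 8 genes, found by symbol among the 31040 genes of the count matrix. They were Maoa and Maob, which code for the monoamine oxidases, Slc18a2, Slc6a3, Slc22a3 and Slc29a4, which code for transporters, Taar1, a receptor gene, and Th, a gene of monoamine synthesis. The study profiled single nuclei of the prefrontal cortex (PFC) of male wild-type C57BL/6 mice aged 2 months. The METH group received methamphetamine at 5 mg/kg by intraperitoneal injection for 14 days and the Control group received saline by the same route for 14 days, and the tissue of 3 mice per group went into 1 library per group. The barcodes of the single deposited matrix end in 1 of 2 numbers, but no label ties a number to a group. METH and Control were therefore not compared, the matrix was treated as 1 pooled sample, and values are given for the whole and for library 1 and library 2, named by that number.

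Monoamines are dopamine, noradrenaline and serotonin, transmitters that reach the cortex mostly in axons of cell bodies lying elsewhere in the brain. They are made in the neuron that releases them, packed into vesicles, taken back from outside the cell by transporters, and broken down by enzymes inside neurons and glia. Methamphetamine acts on the dopamine transporter, the vesicular transporter, monoamine oxidase and the receptor TAAR1, and a nuclear library of the cortex holds the RNA of cells resident in the tissue but not that of the nuclei behind the incoming axons.

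The matrix held 66566100 unique molecular identifiers (UMIs, single captured RNA molecules) in 20766 barcodes. The median depth of a barcode was 2876 UMIs in library 1 and 2977 UMIs in library 2. After removal of barcodes with under 500 genes and of called doublets, 18002 nuclei were kept, 8003 in library 1 and 9999 in library 2. Marker lists named 11 cell classes holding 17460 nuclei, and 542 nuclei lay in clusters left without a name. The members and the other monoamine genes were kept out of the clustering. The labelled tissue was PFC, and 7.79% of nuclei carried the markers of striatal projection neurons and 0.30% those of cholinergic neurons. Astrocytes numbered 50 nuclei in library 1 and 256 in library 2, so values in this class come mostly from library 2.

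Levels are UMIs of a gene scaled to a class total of 1000000 UMIs (CPM), given with an exact Poisson 95% interval, and ratios between classes with an exact 95% interval. With 1 pooled sample there was no replicate check, and every interval covers counting error only. The levels of these 3′ counts were not divided by gene length, so they are set side by side between classes and not between genes. Free RNA was present in all classes, since Slc17a7, an excitatory marker, had a UMI in 27.0% of oligodendrocytes (median 811 UMIs per nucleus) and 36.4% of inhibitory neurons (median 2929 UMIs), against 77.8% of excitatory neurons (median 4379 UMIs). A level is called above free RNA where its interval lay above the upper limit computed for free RNA in that class. The limit of each gene was set by the class where the upper end of its interval was lowest relative to free RNA. That class could not be above the limit, and it was not always the class with the lowest level. For Th it was excitatory neurons, with 24 UMIs, although cholinergic neurons had 0. The highest class is called clear where its ratio to the next class had an interval above 1. Only classes above free RNA were ranked, so a class not above it could be passed over despite a higher CPM. Where just 1 class was above free RNA, the next class was taken by CPM. A gene is called measured at 50 UMIs or more over the named classes.

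Maoa had 1702 UMIs in all barcodes, Maob 272, Slc29a4 211, Slc22a3 176, Th 130, Slc18a2 71 and Slc6a3 16, while Taar1 had none. The 6 members from Maoa to Slc18a2 were measured, and all 6 were above free RNA in at least 1 class, as were 96.2% of the 15914 measured genes. A clear highest class was found for 2 of the 6, Slc18a2 and Slc22a3, against 36.4% of all measured genes. These shares of members do not stand above the background. The classes differed by member, as the plot of levels by class shows.

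**Figure D1:**
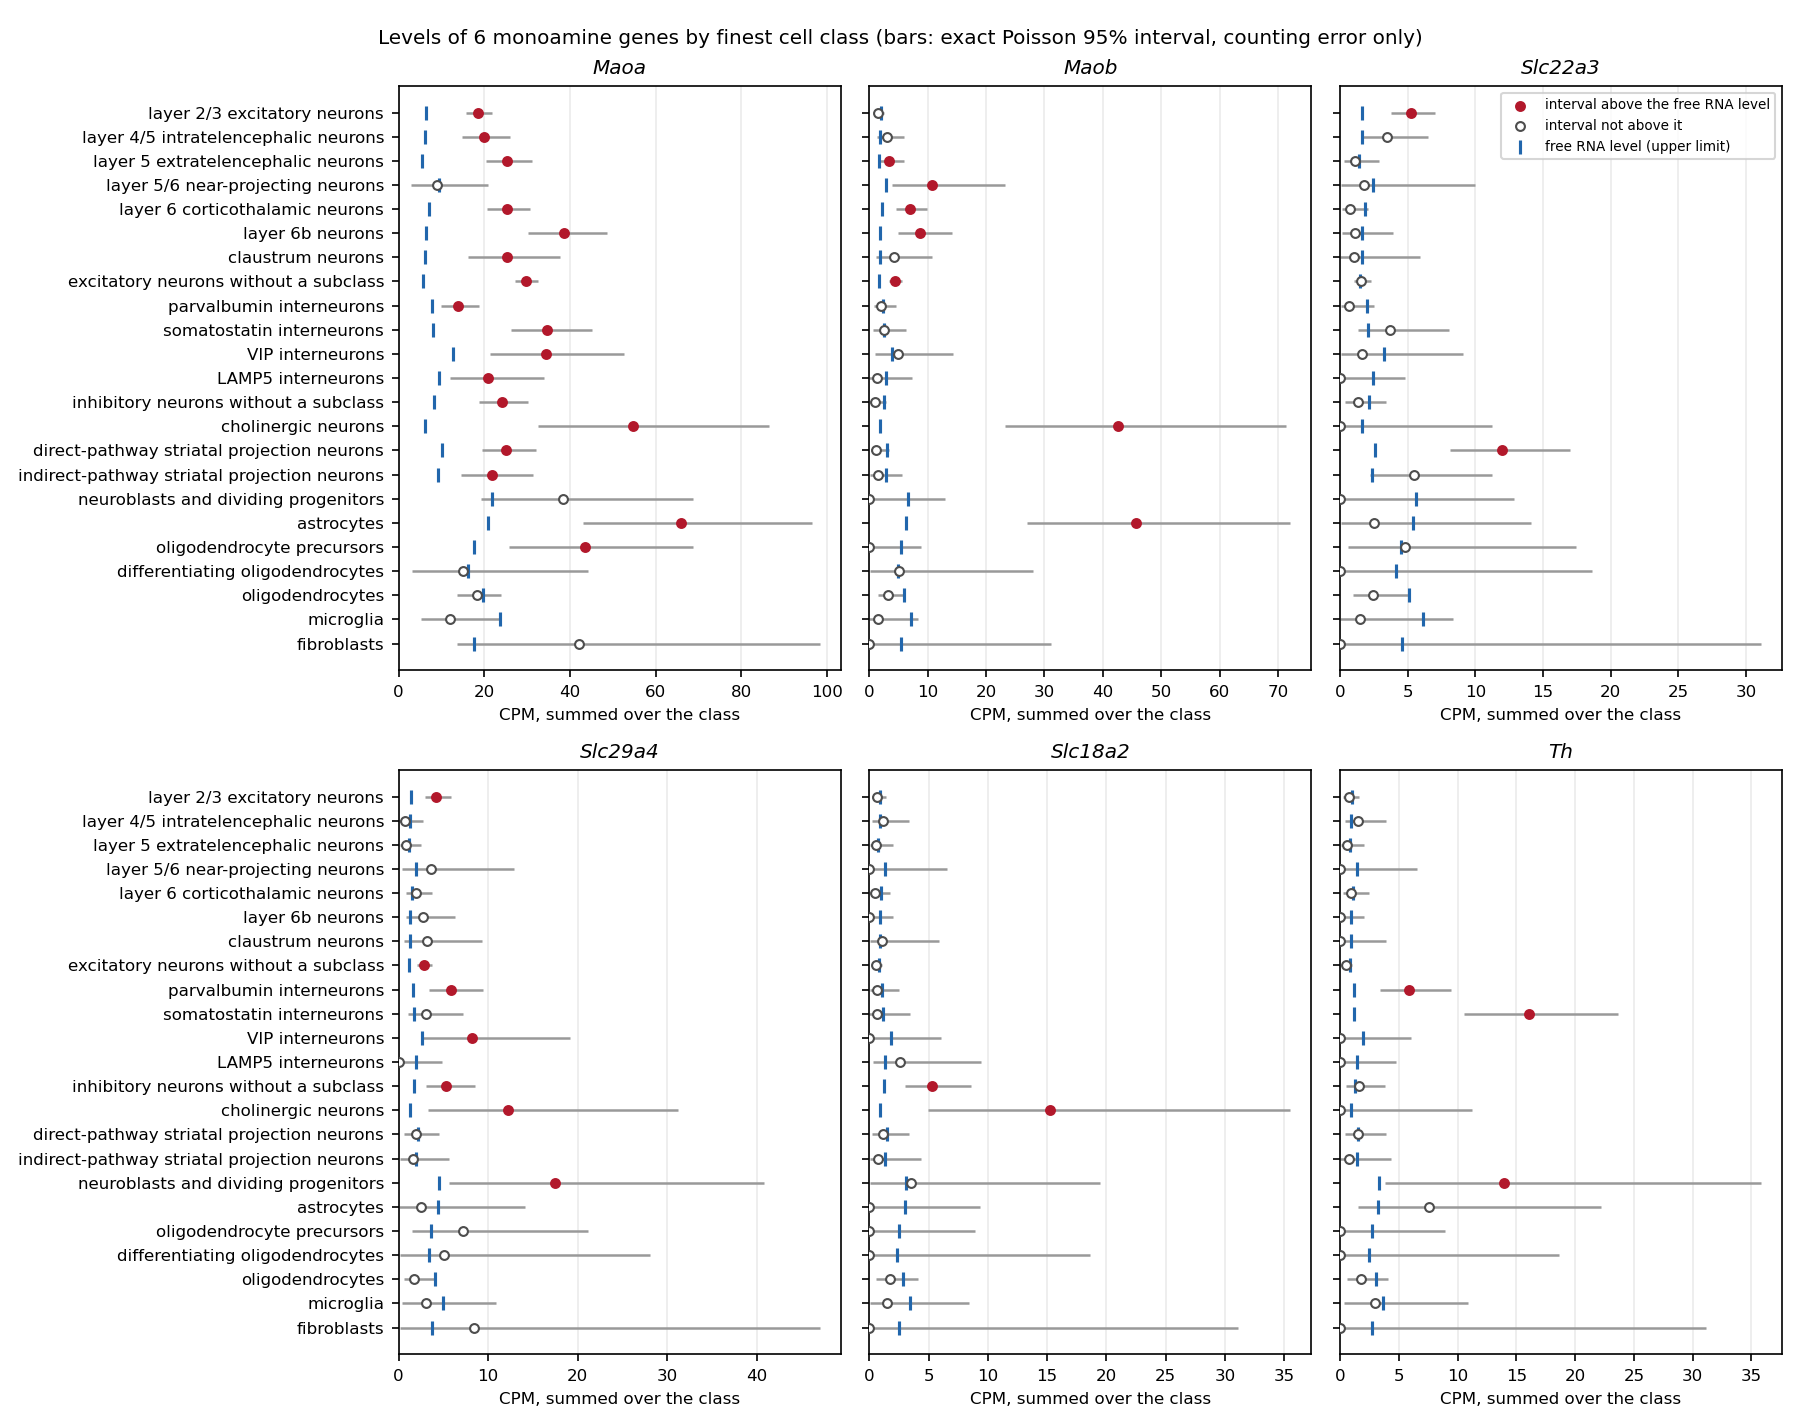
Each panel plots 1 gene, with the CPM summed over each of 21 finest named classes and 2 remainders without a subclass on the x axis; bars are exact Poisson 95% intervals, red points lie above the free RNA level (blue tick) and white points do not. Maob had its 2 highest levels in astrocytes and cholinergic neurons, Slc22a3 in direct-pathway striatal projection neurons, and Th was above free RNA in somatostatin and parvalbumin interneurons.

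Maoa codes for monoamine oxidase A, an enzyme of the outer mitochondrial membrane that oxidises serotonin, noradrenaline and dopamine. It lies on chromosome X at 16619698 to 16687818 on the plus strand (GRCm38), and Maob lies on the opposite strand at 16709282 to 16817366, the 2 genes facing each other end to end with 21463 bases between them. The 250 bases before the Maoa start are shown because Maoa was the member with the most UMIs and was above free RNA in the most classes (RefSeq, GRCm38.p6, chrX:16619448-16619697, plus strand). Capitals mark a match to the GC box GGGCGG, read here as its reverse complement CCGCCC, which starts 46 bases before the start of the gene.
Maoa: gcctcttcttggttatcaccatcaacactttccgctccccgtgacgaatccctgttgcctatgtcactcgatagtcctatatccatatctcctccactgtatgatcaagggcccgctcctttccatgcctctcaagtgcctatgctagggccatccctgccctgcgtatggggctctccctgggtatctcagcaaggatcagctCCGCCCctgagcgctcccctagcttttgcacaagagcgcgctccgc
Of 32851 promoter windows of this length, 32.7% held a GC box on either strand.

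Maoa was above free RNA in 6 of the 11 classes: astrocytes, cholinergic neurons, oligodendrocyte precursors, excitatory neurons, striatal projection neurons and inhibitory neurons. Astrocytes had 65.9 CPM (43.1 to 96.6), from 3 UMIs in library 1 and 23 in library 2, and cholinergic neurons 54.8 CPM (32.5 to 86.5), from 6 and 12 UMIs. Oligodendrocyte precursors, the dividing cells that give rise to oligodendrocytes, had 43.5 CPM (25.8 to 68.7). These 3 classes could not be ordered by their intervals. Excitatory neurons had 25.7 CPM (24.1 to 27.4), with 24.4 CPM in library 1 and 26.9 CPM in library 2, striatal projection neurons 24.0 CPM and inhibitory neurons 23.1 CPM (20.04 to 26.5). The level of astrocytes was 2.56-fold (1.66 to 3.78) that of excitatory neurons, in a pair of classes where 24.5% of measured genes had an interval above 1. Cholinergic neurons had 2.13-fold (1.26 to 3.38) the level of excitatory neurons. Excitatory and inhibitory neurons did not differ beyond counting error (1.11-fold, 0.958 to 1.302).

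Low Maoa levels were found in microglia, with 12.0 CPM (5.19 to 23.7), and in oligodendrocytes, with 18.3 CPM (13.6 to 24.0). Neither was above free RNA, but microglia set the limit for Maoa and so could not be above it. The limit in oligodendrocytes, 19.6 CPM, was scaled from that of microglia. Oligodendrocyte precursors had 2.38-fold (1.31 to 4.13) the level of oligodendrocytes, and astrocytes had 5.48-fold (2.41 to 14.0) that of microglia.

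Among neuronal subclasses, layer 6b neurons, a thin population above the white matter, had 38.6 CPM of Maoa (30.1 to 48.6), against 18.5 CPM (15.6 to 21.7) in layer 2/3 excitatory neurons, a ratio of 2.08 (1.55 to 2.78). Layer 5/6 near-projecting neurons had 8.93 CPM (2.90 to 20.8) from 5 UMIs, not above free RNA. Somatostatin interneurons had 34.7 CPM (26.2 to 45.1), with 42.4 CPM in library 1 and 28.3 CPM in library 2. VIP interneurons had 34.4 CPM (21.3 to 52.6). Parvalbumin interneurons, the fast-spiking basket and chandelier cells, had 13.8 CPM (9.87 to 18.8), with 10.5 CPM in library 1 and 17.1 CPM in library 2. The somatostatin level was 2.51-fold (1.64 to 3.87) and the VIP level 2.49-fold (1.39 to 4.32) that of parvalbumin interneurons. A further 330 inhibitory nuclei with UMIs of the somatostatin markers Sst, Elfn1 and Grin3a scored too near the parvalbumin list for a name and were not in the somatostatin class. Between 2 whole inhibitory clusters, chosen after the values were seen, the Maoa ratio was 2.06 (1.38 to 3.09): 29.3 CPM in 720 nuclei led by Grin3a and Sst, against 14.3 CPM in 869 nuclei led by Erbb4 and Btbd11. In the pair of somatostatin and parvalbumin interneurons, 11.7% of measured genes had an interval above 1. Along the whole order of 23 classes from 65.9 to 8.93 CPM, no class differed from its next neighbour by a ratio whose interval excluded 1.

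The highest Maoa level of any cluster was in 30 nuclei left without a name, whose leading genes were Ly6c1, Slco1a4, Rgs5 and Cldn5. This cluster had UMIs of all 9 endothelial markers, but its score lay too near that of pericytes and smooth muscle cells for a name. It had 137.6 CPM of Maoa (77.0 to 226.9), from 2 UMIs in library 1 and 13 in library 2, in 8 nuclei. That was 2.09-fold (1.03 to 4.09) the level of astrocytes and 5.35-fold (2.98 to 8.86) that of excitatory neurons. The cluster was chosen for its level after the values were seen.

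Maob codes for monoamine oxidase B, which prefers phenylethylamine and also oxidises dopamine, and which is known from astrocytes and from serotonergic and histaminergic neurons. It was above free RNA in 3 of the 11 classes. Astrocytes had 45.6 CPM (27.0 to 72.1), from 3 UMIs in library 1 (49.5 CPM) and 15 in library 2 (44.9 CPM). Cholinergic neurons had 42.6 CPM (23.3 to 71.5), from 6 UMIs in library 1 (50.9 CPM) and 8 in library 2 (37.9 CPM), in 13 of 54 nuclei. Excitatory neurons had 4.18 CPM (3.55 to 4.88), with 4.55 CPM in library 1 and 3.84 CPM in library 2. Both high classes were high in both libraries. The astrocyte level was 10.9-fold (6.31 to 17.8) and the cholinergic level 10.2-fold (5.45 to 17.6) that of excitatory neurons, and the 2 high classes did not differ beyond counting error (1.07-fold, 0.503 to 2.33). In those pairs, 24.5% of measured genes were higher in astrocytes and 11.8% higher in cholinergic neurons by the same rule.

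The cholinergic class rested on Chat, Slc5a7 and Lhx8, with 116, 242 and 74 UMIs in 54 nuclei, while Slc18a3 had none. Gbx1, also on the cholinergic list, was highest in striatal projection neurons, at 8.52 CPM. Its nuclei had a median of 5980 UMIs, the highest of the 11 classes. Summed over 12 astrocyte markers, cholinergic neurons had 152.1 CPM, from 50 UMIs of 10 of these markers, and astrocytes 9022 CPM. In the other direction, 5 cholinergic markers summed to 5.07 CPM in astrocytes and 1317 CPM in cholinergic neurons. Markers of other classes were present too. In cholinergic neurons 8 inhibitory markers summed to 1132 CPM, from 372 UMIs, and 10 oligodendrocyte markers to 675.3 CPM. In astrocytes these sums were 755.5 CPM and 2631 CPM.

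Within excitatory neurons, Maob was higher in 3 deep-layer classes than in layer 2/3. Layer 5/6 near-projecting neurons had 10.7 CPM (3.93 to 23.3) from 6 UMIs, layer 6b neurons 8.69 CPM (4.97 to 14.1) and layer 6 corticothalamic neurons, which project to the thalamus, 6.92 CPM (4.63 to 9.94), against 1.49 CPM (0.770 to 2.60) in layer 2/3 neurons. The ratio to layer 2/3 neurons was 7.20 (2.22 to 20.7) for near-projecting, 5.83 (2.59 to 13.5) for layer 6b and 4.64 (2.30 to 9.99) for corticothalamic neurons. Layer 5 extratelencephalic neurons, also a deep class, had 3.38 CPM (1.74 to 5.90), and their ratio to layer 2/3 neurons, 2.27, had an interval of 0.931 to 5.51. In the first 3 pairs, 15.2%, 16.6% and 19.6% of measured genes had an interval above 1. Corticothalamic neurons had 8.38 CPM in library 1 and 5.38 CPM in library 2, while layer 2/3 neurons had 1.36 CPM in library 1 and 1.59 CPM in library 2. Of the neighbours in the order of 23 classes, the step from cholinergic to near-projecting neurons was the only one whose interval excluded 1 (3.97-fold, 1.43 to 12.6). Inhibitory neurons had 1.91 CPM (1.11 to 3.05), not above free RNA, and oligodendrocyte precursors, neuroblasts and fibroblasts had no Maob UMI. In oligodendrocyte precursors this allows up to 7.24 CPM at 3 counts.

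The balance of the 2 oxidase genes differed between classes. Of the UMIs of both genes together, Maob made up 40.9% in astrocytes (26.3 to 56.8%, 18 of 44 UMIs, Clopper-Pearson 95% interval) and 43.8% in cholinergic neurons (26.4 to 62.3%, 14 of 32). It made up 14.0% in excitatory neurons (12.0 to 16.1%, 158 of 1131), 7.62% in inhibitory neurons (4.50 to 11.9%, 17 of 223) and 5.10% in striatal projection neurons (1.68 to 11.5%, 5 of 98). The intervals of the first 2 classes do not overlap those of the other 3. In oligodendrocyte precursors the share was 0 of 18 UMIs, with an upper bound of 18.5%. Near-projecting neurons had 6 Maob UMIs of 11, with an interval from 23.4 to 83.3%. Across the 20 finest named classes with at least 100 nuclei, a set without the cholinergic neurons, the log2(CPM + 1) levels of Maoa and Maob had a Pearson r of 0.03, a description over classes that share libraries and depth.

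**Figure D2:**
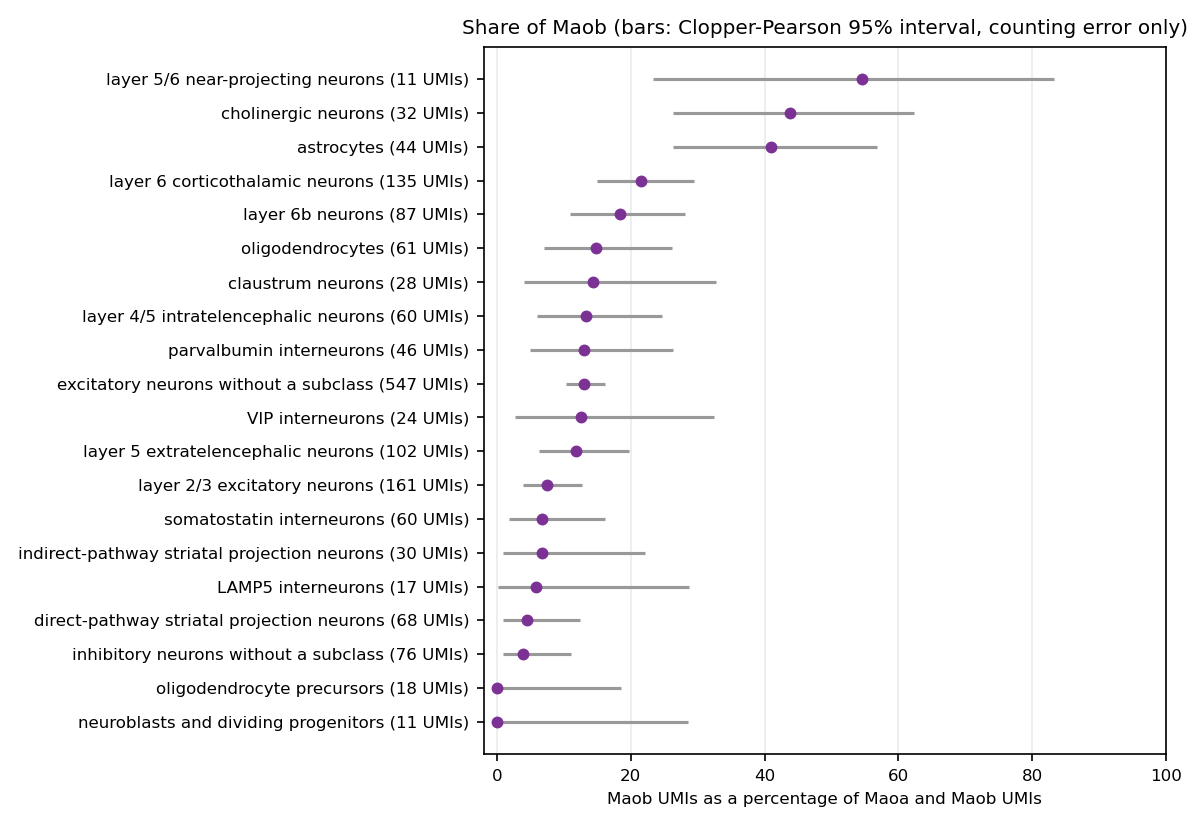
The x axis gives Maob UMIs as a percentage of the Maoa and Maob UMIs of each finest class with at least 10 such UMIs, and bars are Clopper-Pearson 95% intervals. Astrocytes (40.9%) and cholinergic neurons (43.8%) lie to the right of layer 2/3 excitatory neurons (7.45%) and direct-pathway striatal projection neurons (4.41%).

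Slc18a2 codes for VMAT2, which loads monoamines into synaptic vesicles (chromosome 19, 59260896 to 59296012, plus strand). It was sparse, with 71 UMIs in all barcodes, 59 of them in named classes. Cholinergic neurons had 15.2 CPM (4.94 to 35.5), from 5 UMIs in 3 nuclei, 4 UMIs in library 1 and 1 in library 2. This was 6.46-fold (1.90 to 17.6) the level of inhibitory neurons, 2.35 CPM (1.46 to 3.60). The class was clearly highest by the rule, as were 2.47% of measured genes in cholinergic neurons. Neuroblasts, with 3.50 CPM from 1 UMI, were not above free RNA and were passed over. Among the finest classes the lead was not clear. There, cholinergic neurons had 2.89-fold (0.827 to 8.24) the level of inhibitory neurons without a subclass. In library 2 alone the ratio of cholinergic to all inhibitory neurons was 1.38 (0.0330 to 8.80), so the call rests on library 1. Cholinergic neurons were clearly highest under 3 of 9 alternatives of processing. These 3 include one flat free RNA level and the loss of a cluster of 54 excitatory nuclei, where the ratio could not move. In 4 of the other 6 the ratio to inhibitory neurons lay between 13.6 and 33.8 with an interval above 1, but the gene was not measured or neuroblasts came next. Inhibitory neurons were above free RNA too, with 4 UMIs in library 1 and 17 in library 2, and had 4.04-fold (2.12 to 7.71) the level of excitatory neurons, a direction that 39.2% of measured genes shared.

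Of the 21 Slc18a2 UMIs in inhibitory neurons, 16 lay in 1 cluster of 393 nuclei whose leading genes were Ebf1, Zfhx3, Trpm3, Baiap3 and Nts. It had 12.0 CPM (6.87 to 19.5) in 14 nuclei, 20.6-fold (10.1 to 41.2) the level of excitatory neurons. The cluster held 115 nuclei of library 1, with 2 of these UMIs, and 278 nuclei of library 2, with 14. It was singled out after its values were seen. Outside it, no cluster had more than 5 Slc18a2 UMIs. The cholinergic class, the oligodendrocytes and a cluster of 1588 excitatory nuclei each had 5. By level, an unnamed cluster of 115 nuclei had 10.1 CPM (1.22 to 36.3) from 2 UMIs, not above free RNA.

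Slc6a3, the gene of the plasma membrane dopamine transporter DAT, had 16 UMIs, 8 in each library (0.256 CPM in library 1 and 0.227 CPM in library 2). It was not measured by the rule. Of the 14 UMIs in kept nuclei, 4 fell in 4 of the 267 nuclei of the neuroblast and dividing progenitor class, 7 in excitatory and 3 in inhibitory neurons. The 4 UMIs of neuroblasts and progenitors were 3 in library 1 and 1 in library 2, a level of 14.0 CPM (3.81 to 35.8) that was above free RNA, against 0.185 CPM in excitatory and 0.336 CPM in inhibitory neurons. Taar1, the receptor gene for trace amines that methamphetamine also activates, had 0 UMIs in 66566100, which allows a level of up to 0.0451 CPM at 3 counts.

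Slc22a3 codes for OCT3, a low-affinity, high-capacity carrier of monoamines that works without sodium (chromosome 17, 12418960 to 12507704, minus strand). Striatal projection neurons, the medium spiny neurons that receive dense dopamine input, had 9.81 CPM (6.94 to 13.5), with 7.64 CPM from 8 UMIs in library 1 and 10.6 CPM from 30 UMIs in library 2. Excitatory neurons had 2.30 CPM (1.84 to 2.84), with 2.16 CPM in library 1 and 2.43 CPM in library 2. Striatal projection neurons were clearly highest at 4.26-fold (2.83 to 6.31) excitatory neurons, as were 4.37% of measured genes in this class. Oligodendrocyte precursors (4.83 CPM from 2 UMIs, 0.585 to 17.4), astrocytes (2.54 CPM) and oligodendrocytes (2.46 CPM) had more than excitatory neurons. They were not above free RNA and were passed over in this ranking. Oligodendrocytes set the limit for Slc22a3, 5.07 CPM in their class, and so could not be above it. The limits in oligodendrocyte precursors, 4.53 CPM, and in astrocytes, 5.37 CPM, were scaled from that of oligodendrocytes. Striatal projection neurons had 6.73-fold (3.51 to 13.8) the level of inhibitory neurons. Under the alternatives of processing the ratio to excitatory neurons lay between 3.03 and 4.37, but the class was not clearly highest in library 2 alone, with one flat free RNA level or with thinned nuclei.

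Direct-pathway striatal projection neurons, which carry the Drd1 receptor, had 12.0 CPM of Slc22a3 (8.14 to 17.0), from 6 UMIs in library 1 and 25 in library 2. Indirect-pathway neurons, which carry Drd2, had 5.44 CPM (2.19 to 11.2) from 7 UMIs, and the ratio of 2.20 had an interval of 0.951 to 5.92 that included 1. Picked after the values were seen, the highest levels were in 3 small striatal clusters whose leading genes included Gpr149: 36.8 CPM (12.0 to 86.0) from 5 UMIs, 23.2 CPM (9.31 to 47.7) from 7 UMIs and 22.7 CPM (4.69 to 66.5) from 3 UMIs. The largest striatal cluster, of 1080 nuclei, had 6.96 CPM (4.41 to 10.4) from 23 UMIs. Layer 2/3 excitatory neurons had 5.21 CPM (3.76 to 7.05), with 5.46 CPM in library 1 and 5.01 CPM in library 2, against 0.716 CPM (0.148 to 2.09) in layer 6 corticothalamic neurons. The ratio was 7.29 (2.33 to 36.7), in a pair where 15.7% of measured genes had an interval above 1. Between these 2 classes Maob ran the other way, being higher in corticothalamic neurons. Against layer 2/3 neurons the striatal lead in Slc22a3 was smaller than against all excitatory neurons. It was 2.30-fold (1.40 to 3.74) for direct-pathway neurons, in a pair where 22.4% of measured genes had an interval above 1. For indirect-pathway neurons it was 1.04-fold, with an interval of 0.396 to 2.34 that included 1. Slc22a3 overlaps the genes Plg, which had 12 UMIs, and AC132106.1, on the other strand.

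Slc29a4 codes for PMAT, the plasma membrane monoamine transporter, a low-affinity carrier of dopamine and serotonin (chromosome 5, 142692512 to 142722490, plus strand). It was above free RNA in 4 classes. The neuroblast and dividing progenitor class had 17.5 CPM (5.68 to 40.8) from 5 UMIs and cholinergic neurons 12.2 CPM (3.32 to 31.2) from 4 UMIs, levels that could not be ordered (1.44-fold, 0.309 to 7.24). Inhibitory neurons had 4.82 CPM (3.49 to 6.49), with 3.27 CPM in library 1 and 6.07 CPM in library 2, against 2.70 CPM (2.20 to 3.28) in excitatory neurons, with 2.28 CPM in library 1 and 3.08 CPM in library 2. The ratio of 1.79 (1.22 to 2.57) was in a direction that 39.2% of measured genes shared.

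Within inhibitory neurons, VIP interneurons had 8.19 CPM of Slc29a4 (2.66 to 19.1) from 5 UMIs and parvalbumin interneurons 5.87 CPM (3.42 to 9.40) from 17 UMIs. The parvalbumin level was 2.80 CPM in library 1 and 8.87 CPM in library 2. Layer 2/3 excitatory neurons had 4.22 CPM (2.92 to 5.90), with 4.09 CPM in library 1 and 4.33 CPM in library 2. Layer 5 extratelencephalic neurons, which project to the brainstem and spinal cord, had 0.844 CPM (0.174 to 2.47). That ratio was 5.00 (1.57 to 25.5), in a pair where 18.4% of measured genes had an interval above 1. Like Slc22a3, Slc29a4 was higher in layer 2/3 than in layer 6 corticothalamic neurons (2.21-fold, 1.005 to 5.53).

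**Figure D3:**
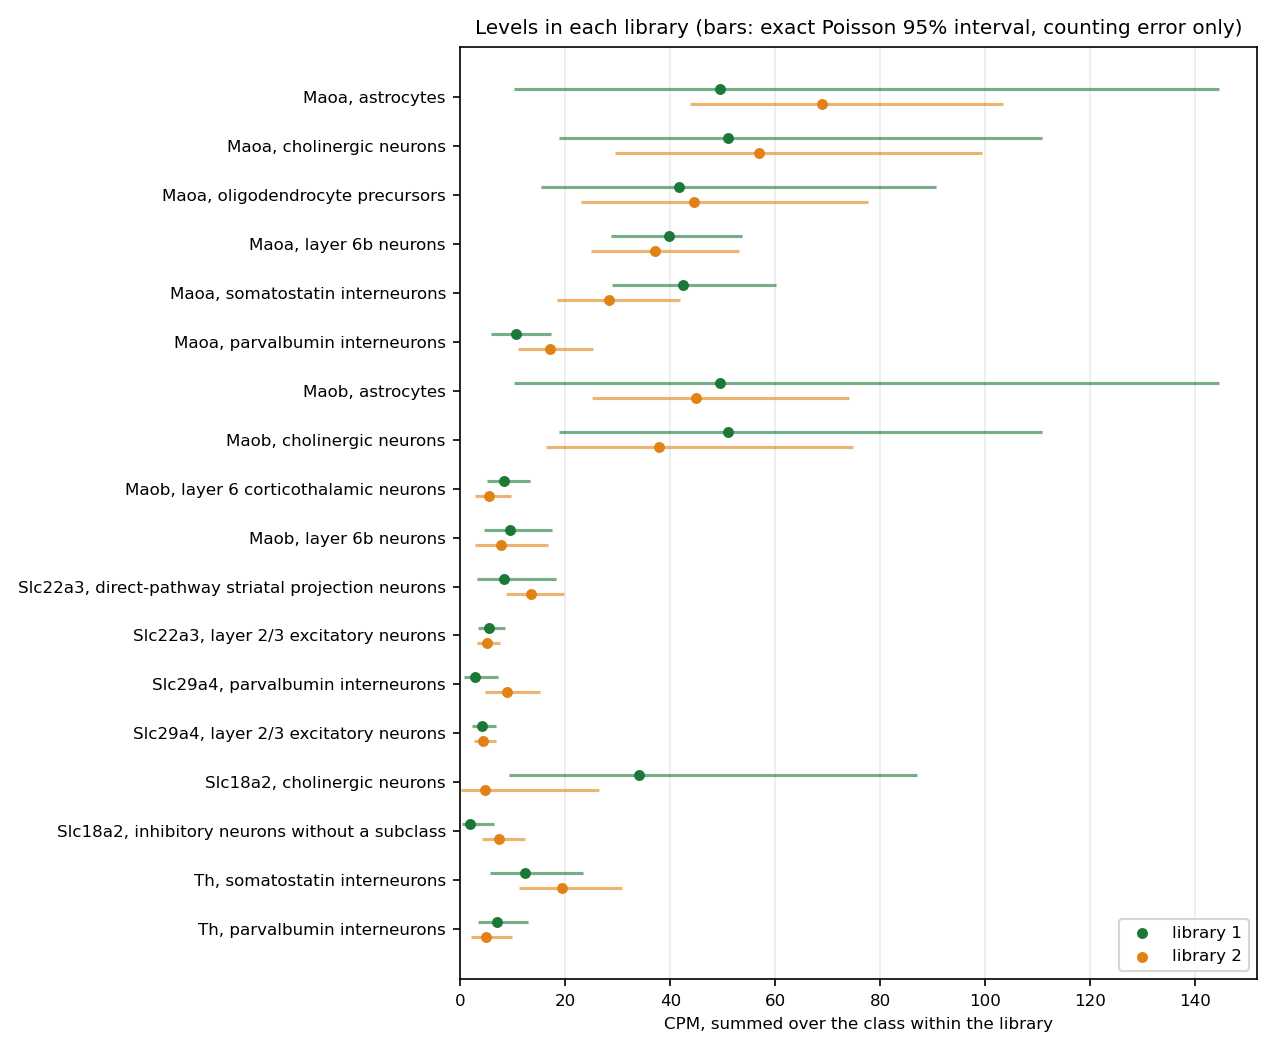
The x axis gives the CPM of a gene in a class within library 1 (green) and library 2 (orange), with exact Poisson 95% intervals, for 18 pairs of gene and class that the text describes. Maob in astrocytes was 49.5 CPM in library 1 and 44.9 CPM in library 2, while Slc18a2 in cholinergic neurons was 34.0 CPM in library 1 and 4.74 CPM in library 2.

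Th codes for tyrosine hydroxylase, the rate-limiting enzyme of dopamine and noradrenaline synthesis. The 250 bases before its RefSeq start are shown because Th had the largest ratio of inhibitory to excitatory neurons among the members (RefSeq, GRCm38.p6, chr7:142899996-142900245, minus strand). Capitals mark the cAMP response element TGACGTCA, which is the same on both strands and starts 45 bases before the RefSeq start. The gene record used for counting runs from 142892752 to 142931128 on the minus strand of chromosome 7, so it begins further upstream and this window lies inside it.
Th: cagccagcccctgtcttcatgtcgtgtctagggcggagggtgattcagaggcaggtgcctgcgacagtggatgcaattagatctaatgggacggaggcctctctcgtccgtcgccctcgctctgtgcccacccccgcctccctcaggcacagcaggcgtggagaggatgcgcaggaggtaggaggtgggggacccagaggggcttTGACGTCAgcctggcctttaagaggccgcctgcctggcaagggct
This motif was in 1.55% of the 32851 windows.

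Th was above free RNA in inhibitory neurons and in the neuroblast and dividing progenitor class. Inhibitory neurons had 5.38 CPM (3.97 to 7.13), with 5.28 CPM in library 1 and 5.46 CPM in library 2, against 0.635 CPM (0.407 to 0.945) in excitatory neurons, a ratio of 8.47 (5.09 to 14.5). Neuroblasts had 14.0 CPM (3.81 to 35.8), from 3 UMIs in library 1 and 1 in library 2. Its ratio to inhibitory neurons, 2.60, had an interval of 0.681 to 7.10. Cholinergic neurons and oligodendrocyte precursors had no Th UMI.

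Somatostatin interneurons had 16.1 CPM of Th (10.5 to 23.6), from 9 UMIs in library 1 (12.3 CPM) and 17 in library 2 (19.3 CPM). Parvalbumin interneurons had 5.87 CPM (3.42 to 9.40), from 10 UMIs in library 1 (7.0 CPM) and 7 in library 2 (4.77 CPM). VIP and LAMP5 interneurons had no Th UMI, which allows up to 4.91 CPM in VIP and 3.91 CPM in LAMP5 interneurons at 3 counts. The somatostatin level was 2.74-fold (1.43 to 5.39) that of parvalbumin and 25.4-fold (14.0 to 46.2) that of excitatory neurons, pairs in which 11.7% and 22.5% of measured genes had an interval above 1. Between the whole clusters of 720 and 869 nuclei described for Maoa, Th had 10.5 CPM and 6.11 CPM, and the ratio of 1.71 had an interval of 0.899 to 3.34 that included 1. The direction was the same by both ways of grouping nuclei, and the intervals of the 2 ratios overlap. Only the interval of the named somatostatin and parvalbumin subclasses excluded 1. A Th UMI was found in 3.99% of somatostatin nuclei (median 3080 UMIs), against 0.297% of excitatory nuclei (median 4379 UMIs). With nuclei thinned to 1000 UMIs each, the shares were 2.20% in somatostatin interneurons and 0.0747% in excitatory neurons.

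The highest Th level was in an unnamed cluster of 57 nuclei, 156.7 CPM (95.7 to 242.1), from 20 UMIs in 14 nuclei. Of these UMIs, 4 were in the 18 nuclei of library 1 and 16 in the 39 nuclei of library 2. Its leading genes were Trh, Th, Trhde, Nkx2-1 and Lhx8. All 8 inhibitory markers had UMIs there, with a summed level of 6214 CPM, but Lhx8, a gene of the cholinergic list, was among the leading genes and kept it from a name. The 5 cholinergic markers summed to 148.9 CPM there, from 19 UMIs of 2 of them. Its Th level was 9.73-fold (5.15 to 18.1) that of somatostatin interneurons, in a pair where 4.91% of measured genes had an interval above 1. The cluster was singled out after its values were seen.

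Of 97 kept nuclei with a Th UMI, 1 had a UMI of Ddc, the next enzyme of dopamine synthesis, 3 of Slc18a2, 1 of Slc6a3 and 1 of Dbh, while 36 had one of Gad2 and 48 one of the free RNA marker Slc17a7. These genes are sparse, and of all 18002 kept nuclei 337 had a UMI of Ddc, 58 of Slc18a2, 13 of Slc6a3 and 11 of Dbh. The product of the 2 shares of nuclei, times 18002, was 1.82 for Th with Ddc, 0.313 with Slc18a2, 0.070 with Slc6a3 and 0.0593 with Dbh. It was 15.3 for Th with Gad2 and 51.5 with Slc17a7. These products are given as a description with no test. Of 7 markers of midbrain dopaminergic neurons, Foxa1 and Foxa2 had no UMI in any barcode, En1 had 1, Pitx3 3 and Chrna6 15, and Ret and Lmx1b had 62 and 112. At these depths a gene without a UMI in a nucleus may still be transcribed there.

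**Figure D4:**
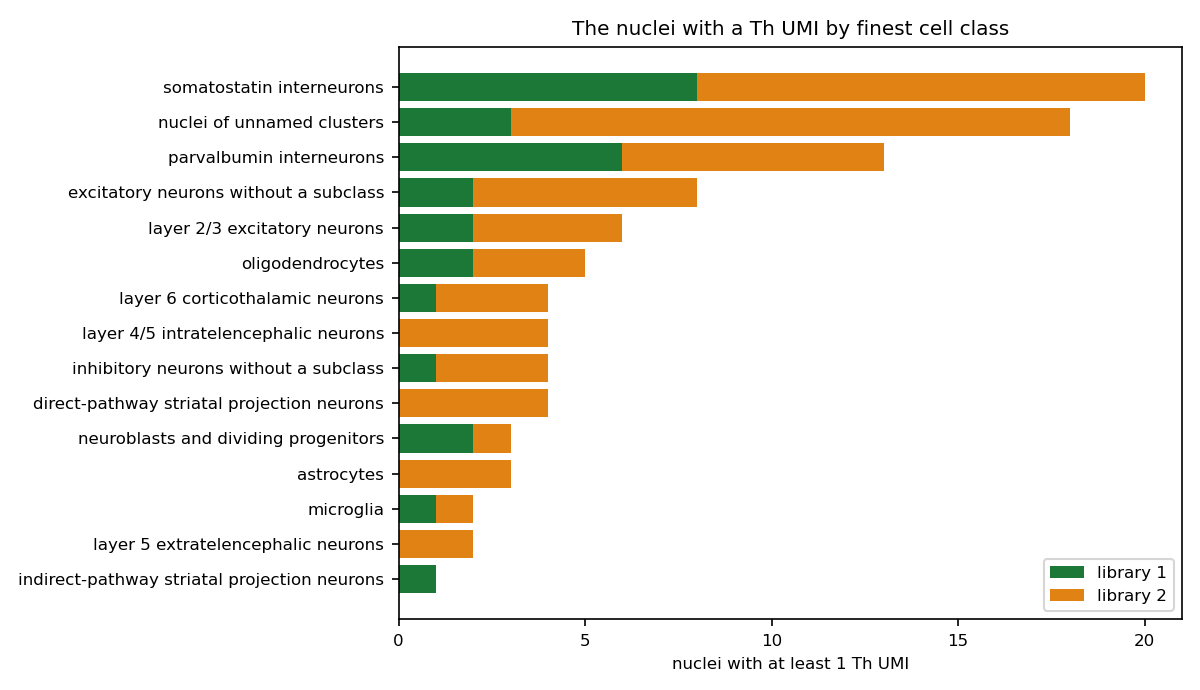
Bars count the 97 kept nuclei with at least 1 Th UMI by finest class on the x axis, divided into library 1 (green) and library 2 (orange). Somatostatin interneurons held 20, unnamed clusters 18 and parvalbumin interneurons 13.

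Around the members, 25 further genes of monoamine synthesis, transport and breakdown were counted. Of these, 16 were measured. Among the 16, 15 were above free RNA in at least 1 class, against 96.2% of all measured genes. A clear highest class was found for 6 of the 16, against 36.4% of all measured genes. Both shares lie near the background. By role, the genes with a clear highest class were 3 of 5 measured synthesis genes, 1 of 2 transport genes and 2 of 9 breakdown genes. The 6 clear genes were divided among 5 classes.

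Among synthesis genes, Ddc, which codes for aromatic amino acid decarboxylase, was highest in differentiating oligodendrocytes with 105.8 CPM (65.5 to 161.8) from 21 UMIs, followed by oligodendrocytes with 45.3 CPM (37.9 to 53.9) from 129 UMIs. Oligodendrocytes had 59.6 CPM in library 1 and 29.9 CPM in library 2. Their pooled level was 14.3-fold (11.1 to 18.5) that of excitatory neurons. Qdpr, whose enzyme regenerates the tetrahydrobiopterin cofactor of tyrosine hydroxylase, was also highest in oligodendrocytes, with 227.7 CPM (210.5 to 246.0), 8.68-fold (7.47 to 10.1) inhibitory neurons. Pcbd1, of the same cofactor cycle, was highest in cholinergic neurons with 24.3 CPM (10.5 to 48.0) from 8 UMIs. Gch1, Dbh, Pnmt, Tph1 and Tph2 had under 50 UMIs and were not measured.

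Among breakdown genes, Sult1a1, a sulfotransferase gene, was highest in fibroblasts with 92.8 CPM (46.3 to 166.0), from 7 UMIs in library 1 and 4 in library 2. Rnls, the renalase gene, reached 20.1 CPM (15.9 to 25.1) in striatal projection neurons, its highest class, which is 1.43-fold (1.06 to 1.91) the level of inhibitory neurons. Among transport genes, Slc47a1, which codes for the extrusion carrier MATE1, had 1324 CPM in fibroblasts (1125 to 1548), from 157 UMIs in 50 of 103 nuclei. The noradrenaline and serotonin transporter genes Slc6a2 and Slc6a4 had 2 and 11 UMIs in the named classes.

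**Figure D5:**
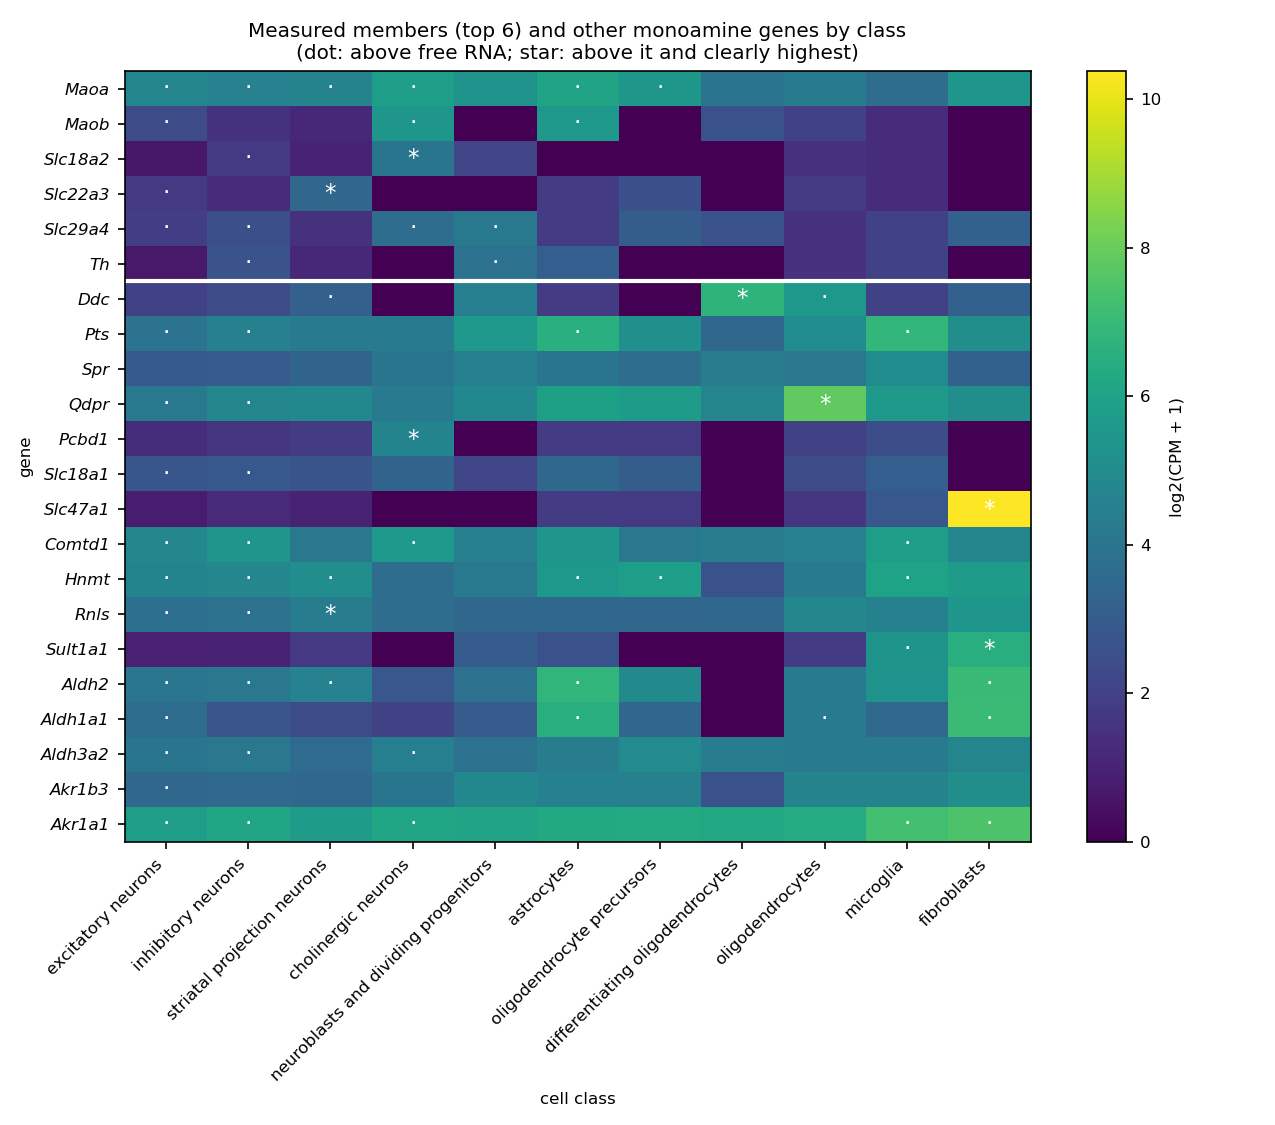
Colour gives log2(CPM + 1) of the 6 measured members (above the white line) and the 16 other measured monoamine genes in 11 classes; a dot marks a level above free RNA and a star a clearly highest class. Stars lie at Ddc in differentiating oligodendrocytes, Qdpr in oligodendrocytes, Slc47a1 in fibroblasts and Slc22a3 in striatal projection neurons.

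By likeness over the 20 finest named classes with at least 100 nuclei, among 13352 genes with at least 200 UMIs, the genes nearest to Maoa were Papd7, Sdc2 and Haus6, with a Pearson r of 0.82 for Papd7 and 0.77 for the others. Each of the 3 was highest in fibroblasts, where Maoa had 42.2 CPM from 5 UMIs and was not above free RNA. There they had 42.2 CPM (Papd7), 134.9 CPM (Sdc2) and 25.3 CPM (Haus6), in a class where 3 counts are 25.3 CPM. Those nearest to Maob were Gm40323 (0.82), Tbcel (0.81) and Dtx1 (0.77), and each of these was highest in astrocytes. Gm40323 had 12.7 CPM there, in a class where 3 counts are 7.61 CPM. Those nearest to Slc29a4 were Naa50 (0.79), Brcc3 (0.79) and Tcf3 (0.78), each highest in the neuroblast and dividing progenitor class. The values are descriptions over classes that share libraries and free RNA.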

How the data were processed

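Nuclei of the PFC were isolated on a density gradient and profiled with 10x 3′ chemistry, per the labels' protocols. The authors deposited raw UMI counts, whole numbers for each pair of gene and barcode. Tools named in the submitters' processing notes are Cell Ranger 1.3.0 and Seurat 3.1.4, with mm10 as the genome, and per the file headers the matrix was written by software version 3.1.0. Any filter on barcodes is not given in the sources used here. There were 20766 barcodes, 9890 in library 1 and 10876 in library 2, and 154 barcode sequences occur in both libraries. The 1 column of values was mapped to no group.

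Barcodes with at least 500 genes were kept. Doublets were called per library with Scrublet in Scanpy 1.11.5 and removed, 889 of 8892 barcodes in library 1 and 660 of 10659 in library 2. Leiden clustering at resolution 1 used 3000 variable genes, without the members and other monoamine genes, 50 components and 20 neighbours. Clusters were named from marker lists. At least 3 markers had to be detected at 20 CPM and the score had to be 1.5 times that of the next list. A minimum score of 0.35 for neuronal subclasses was set after the data were seen. Names rebuilt in this way may differ from those of the study.

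Counts were summed per class. The free RNA level of a gene is an upper limit. Each class of at least 200000 UMIs gave an upper bound of the gene's level, divided by its Slc17a7 level (in excitatory neurons by a level from myelin genes). The lowest of these values was scaled back to each class. The class that set the limit was thus picked from these same data and could not be above it. Only classes with at least 50 nuclei could be highest, and likeness used genes with at least 200 UMIs and classes with at least 100 nuclei. The ratio scripts were tested on simulated data. All 8 members are named, other monoamine genes where their highest class was clear, and the 3 genes most like each member with at least 200 UMIs. Members, lists and pairs of classes were chosen with earlier results of these data known. Coordinates follow GENCODE's annotation of GRCm38, and 6 of the 8 members had a RefSeq promoter window. Some items are not reported here and were left out of the counts of other monoamine genes and of markers.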

Additional observations from a re-analysis of the deposited data

How the results depend on the processing

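No paired analysis was possible because no label ties a library to a group. The number of members with a clear highest class was 2 under 7 of 9 alternatives, 1 with one flat free RNA level and 0 with nuclei thinned to 1000 UMIs each, where 2 members were still measured and 2 were above free RNA. Thinning left out 3809 nuclei with fewer UMIs. The number of members above free RNA was 6 in the reported setting and between 4 and 6 under every alternative other than thinning, being equal to the number measured each time. Which members were clear did change: Slc22a3 was clear under 6 of 9 alternatives, Slc18a2 under 3, Maob, Slc29a4 and Th under 2 each, and Maoa under 0. The clear class of Slc29a4 was cholinergic neurons with a minimum of 1000 genes and inhibitory neurons in library 2 alone, and its highest class was the reported one in 2 of 8 alternatives. Maob was clear in the single libraries only, where the cholinergic class was under 50 nuclei and was not compared. Without 1 cluster of 54 excitatory nuclei led by oligodendrocyte genes, an alternative added after seeing the data, the same 2 members were clear. Of 52 recomputed ratios of highest to next class, 48 met the condition set for them, which for Slc18a2 and Slc22a3 was an interval still above 1 and for the other 4 members a value within the reported interval. The others were Slc18a2 in cholinergic over inhibitory neurons, at 1.38 in library 2 alone against 33.8 in library 1 alone, Maoa in astrocytes over cholinergic neurons, at 0.635 with thinned nuclei, and Th in neuroblasts over inhibitory neurons, at 0.536 with Leiden resolution 0.5 and 7.93 in library 1 alone. The ratio of Slc22a3 in striatal projection over excitatory neurons lay between 3.03 and 4.37. With one flat free RNA level no ratio could move, since the counts of both classes stay the same. Without the cluster of 54 excitatory nuclei only the Slc22a3 ratio could move. The ratios that could not move are among the 48 and say nothing about robustness. With whole inhibitory clusters in place of the named subclasses, also added after seeing the data, the ratio of somatostatin to parvalbumin interneurons was 2.06 for Maoa and 1.71 for Th, whose interval then included 1. Depth limits Slc6a3, which had under 50 UMIs, and Taar1, which had none. The cause of these changes was not tested.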
